A study of Rattus norvegicus with 6 samples.

Results

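Fibronectin and the matricellular proteins were described here as 10 genes taken by name (Fn1, Tnc, Thbs1, Thbs2, Postn, Sparc, Cthrc1, Ctgf, Cyr61 and Spp1). They made up 10 of the 21655 gene names of the transcript table and held 42 of its 70376 transcript rows. Sprague–Dawley rats, 7 weeks old, had received either saline (control) or a single intratracheal dose of bleomycin at 7 mg/kg (PF model), and lungs were taken on day 28. The comparison asks which of these genes differ in lungs with bleomycin-induced fibrosis. Each group had 3 libraries of rRNA-depleted whole-lung RNA, called Control_1 to Control_3 and Model_1 to Model_3 after their labels and made from 1 rat each per the study's methods. The level of a gene was the sum of FPKM (fragments per kilobase of transcript, scaled to the mapped total of the library) over its rows, so levels are per length. They can be compared between genes only roughly, since a short partial row counts in the sum like a full-length one. In whole lung, more cells of a type and more RNA per cell cannot be told apart.

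Matricellular proteins are secreted into the extracellular matrix, where they mainly tune how cells attach and signal and do little as load-bearing structure. Fibronectin is assembled into fibrils by integrins and forms the provisional matrix of a wound, on which collagen is later laid down. Most of these genes are known to be raised by injury. Many respond to TGF-beta and to the YAP/TAZ co-activators, which act through the TEAD DNA-binding proteins.

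The CCN genes Ctgf and Cyr61 are textbook targets of YAP/TAZ, so their promoters are shown as the sequences in which the TEAD letters GGAATG were looked for on both strands. The 250 bases before the start site are from RefSeq (GRCr8), at chr1:22624615-22624864 on the minus strand for Ctgf and chr2:237225690-237225939 on the minus strand for Cyr61. They are written 5′ to 3′ with GGAATG, or CATTCC where the match is on the other strand, in capitals.
Ctgf: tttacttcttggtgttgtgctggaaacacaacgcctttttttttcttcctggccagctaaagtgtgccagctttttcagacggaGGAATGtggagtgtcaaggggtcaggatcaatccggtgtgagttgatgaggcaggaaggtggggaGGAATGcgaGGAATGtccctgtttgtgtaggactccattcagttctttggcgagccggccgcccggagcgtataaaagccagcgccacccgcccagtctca
Cyr61: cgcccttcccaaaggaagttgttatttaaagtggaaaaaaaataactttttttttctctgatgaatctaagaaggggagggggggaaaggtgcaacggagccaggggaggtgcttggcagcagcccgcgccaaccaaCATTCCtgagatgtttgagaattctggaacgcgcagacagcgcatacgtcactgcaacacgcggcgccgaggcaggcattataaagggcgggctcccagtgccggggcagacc
Ctgf held the letters 3 times, at 166, 101 and 92 bases before the start, and Cyr61 once, at 113 bases on the other strand. Of 33469 rat promoter windows of this length, 12.06% held at least 1 match and 27 held 3 or more. Of the 7 members with a promoter in the table, Thbs1 (1 match at 47 bases) and Sparc (1 match at 33 bases) also held it, while Tnc, Postn and Spp1 did not. The TATA letters TATAAA were found anywhere in the window in 5 of the 7, against 12.93% of all windows. They lay 31 bases before the start in Ctgf, 34 in Cyr61 and 44 in Postn. In Spp1 and Tnc they lay at 204 and 208 bases. Only these exact letters were searched, so the variant TATATAA close to the start of Tnc was not counted. A match is a description of letters and not a measured binding site.

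The lung character of the libraries was checked against marker genes before the members were compared. Markers of alveolar type 2 cells summed to 4328 to 6027 FPKM in control and 5106 to 6645 FPKM in PF model samples, and those of fibroblasts to 121 to 131 and 122 to 150 FPKM. The libraries held an estimated 35778600 to 41112700 reads on transcripts (coverage times length over read length). Rows with names of Rfam, microRNA and similar small RNA types, or names starting with Rn and a digit, took 38.7% to 49.0% of all FPKM. Correlations of expression between libraries averaged 0.940 within a group (6 pairs) and 0.941 between groups (9 pairs). Across the table, 130 genes were called higher and 168 lower in PF model samples. A call required that the limma p, unadjusted, did not exceed 0.05 and that group means of FPKM differed by at least 1 log2 unit. By an adjusted p below 0.05, 2 genes (0.0102%) were found.

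None of the 10 members was called between control and PF model lungs. By the same rule, 1.52% of the 19645 genes tested were called (0.662% higher and 0.855% lower). Each of the 10 members had control and PF model values that overlapped. Of all genes, 10.7% had groups that did not overlap, and 10 members are too few to be set apart from that share. No member had an unadjusted p of at most 0.05 in limma, against 4.91% of all genes, and adjusted p lay between 0.933 and 0.993. The difference in log2(FPKM + 1) was above 0 for 7 members and below 0 for 3, with a median of 0.15 beside -0.0072 for all genes, of which 47.5% were above 0, and Thbs2 moved above 0 after scaling to TPM. With 3 libraries per group, a p above the threshold does not show that levels were equal, so the 95% interval of each difference is given with it.

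The members covered a wide span of levels. Sparc had a mean of 379 FPKM over the 6 libraries, at the 99.7th percentile of all genes, followed by Cyr61 (109 FPKM), Fn1 (79.0 FPKM), Postn (72.2 FPKM), Thbs1 (34.8 FPKM), Ctgf (22.2 FPKM) and Tnc (12.8 FPKM). Thbs2 (0.932 FPKM), Cthrc1 (0.539 FPKM) and Spp1 (0.218 FPKM) each had a mean below 1 FPKM. Neighbours in this order whose ranges over the libraries overlapped were Cyr61 and Fn1, Fn1 and Postn, Ctgf and Tnc, Thbs2 and Cthrc1, and Cthrc1 and Spp1. Sparc alone supplied between 43.6% (Control_3) and 60.5% (Model_3) of the summed FPKM of the 10 genes.

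**Figure D1:**
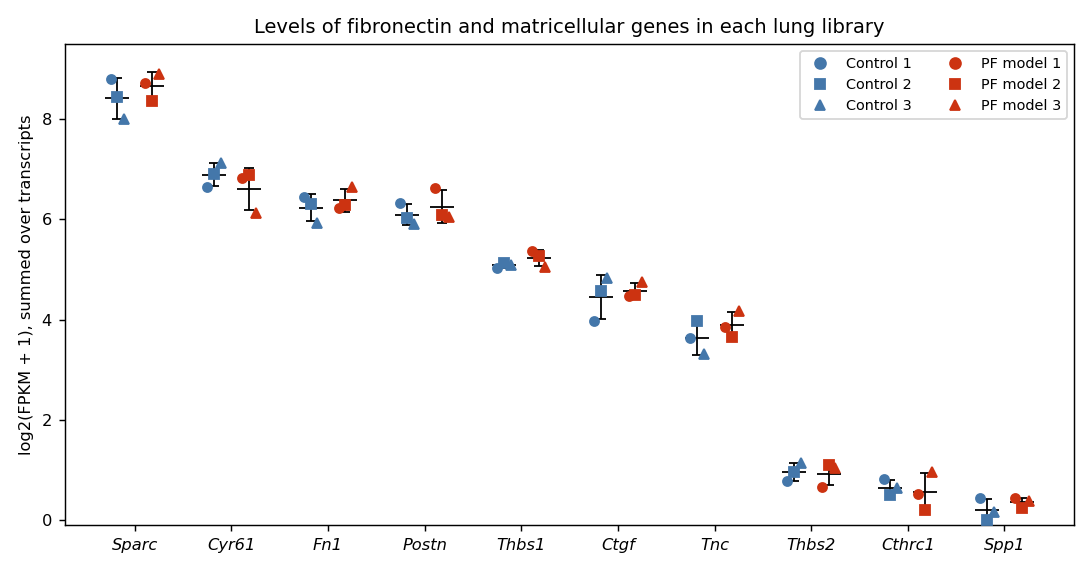
Level of each member, as log2(FPKM + 1) summed over its transcript rows, in the 3 control libraries (blue) and the 3 PF model libraries (red), with horizontal lines for the group mean and bars for 1 SD. The genes are ordered by mean FPKM, from Sparc (379 FPKM) to Spp1 (0.218 FPKM), and the control and PF model points of all 10 overlap.

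Fibronectin was measured from locus MSTRG.37244 on chromosome 9 (78900103 to 78969078, minus strand, coordinates of the deposited table, whose build is not given in the sources used here). Fn1, which encodes the fibril-forming glycoprotein of provisional matrix, stood at 86.5, 78.5 and 59.9 FPKM in Control_1 to Control_3 and at 73.9, 76.5 and 98.6 FPKM in Model_1 to Model_3. The lowest value was a control and the highest a PF model library, but the other 4 lay between them in mixed order. Control samples averaged 75.0 ± 13.7 FPKM and PF model samples 83.0 ± 13.6 FPKM (SD, n = 3). In limma the difference was 0.15 on the log2 scale (95% interval -0.26 to 0.56, adjusted p = 0.944). Between 22599 and 35097 reads per library were estimated for Fn1.

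Among the large multimeric glycoproteins, Tnc and Thbs1 were expressed and Thbs2 was near the floor. Tenascin-C, encoded by Tnc, is an anti-adhesive protein of healing and developing tissue, and the thrombospondins bind CD47 and CD36, with thrombospondin 1 also able to activate latent TGF-beta. Tnc (chromosome 5, 79789671 to 79874671, minus strand) stood at 11.3, 14.7 and 8.90 FPKM in control and at 13.4, 11.6 and 17.1 FPKM in PF model libraries. Its groups interleaved, with Control_2 second to Model_3. The means were 11.7 ± 2.94 and 14.0 ± 2.81 FPKM (SD, n = 3). The log2 difference was the highest of the members at 0.26 (95% interval -0.24 to 0.75, limma adjusted p = 0.933).

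Thbs1 (chromosome 3, 109862117 to 109876064, plus strand) was the steadiest member, at 31.7, 33.9 and 33.0 FPKM in control and 40.5, 37.4 and 32.2 FPKM in PF model libraries. Model_1 and Model_2 lay above all controls, and Model_3 lay among them. The means were 32.9 ± 1.09 and 36.7 ± 4.20 FPKM (SD, n = 3), and the coefficient of variation over the 6 libraries was 9.91%. The log2 difference was 0.15 (95% interval -0.087 to 0.38, limma adjusted p = 0.933), and its unadjusted p was the smallest of the 10 genes. Without Model_3 the difference was 0.24 with an unadjusted limma p of 0.0243, so 1 library decided on which side of 0.05 Thbs1 fell. Thbs2 (chromosome 1, 56653938 to 56683731, minus strand), whose product limits vessel growth, stood at 0.719, 0.938 and 1.20 FPKM in control and at 0.574, 1.13 and 1.04 FPKM in PF model libraries. The highest value was a control and the lowest a PF model library, and the log2 difference of -0.034 had a 95% interval from -0.41 to 0.34 (limma adjusted p = 0.993). The sign of the Thbs2 difference turned to above 0 without Control_3 (0.055), without Model_1 (0.10) and after scaling to TPM (0.0040). Summed over Tnc, Thbs1 and Thbs2, the controls lay between 43.1 and 49.6 FPKM and the PF model libraries between 50.0 and 54.5 FPKM. These sums did not overlap although each gene did, and no test is given for a sum over genes grouped by role. Among all single genes 10.7% had groups without overlap, and 1 such sum cannot be set apart from that share. The sums of the other roles overlapped, with 314 to 527 FPKM in control and 395 to 541 FPKM in PF model libraries for Postn, Sparc and Cthrc1, and 114 to 165 FPKM and 95.05 to 139 FPKM for Ctgf and Cyr61. Fn1 and Spp1, each alone in its role, overlapped as given for the genes.

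The collagen-associated members were led by Sparc and Postn. Osteonectin, encoded by Sparc, binds procollagen and calcium and guides fibril assembly, and periostin, encoded by Postn, is a fibroblast product that links collagen to tenascin-C. Sparc (chromosome 10, 40742400 to 40764674, minus strand) stood at 447, 348 and 254 FPKM in control and at 423, 328 and 475 FPKM in PF model libraries. The groups interleaved, and Control_1 was second only to Model_3. The means were 349 ± 96.3 and 409 ± 74.8 FPKM (SD, n = 3). The log2 difference was 0.25 (95% interval -0.34 to 0.83, limma adjusted p = 0.934). As a fold on the FPKM + 1 scale this was 1.19, with bounds of 0.791 and 1.78.

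Postn (chromosome 2, 143656793 to 143688087, plus strand) stood at 79.5, 64.3 and 59.4 FPKM in control and at 97.9, 67.0 and 64.8 FPKM in PF model libraries. Model_1 was the highest, and the other 2 PF model libraries lay below Control_1. The means were 67.7 ± 10.5 and 76.6 ± 18.5 FPKM (SD, n = 3), with a log2 difference of 0.16 (95% interval -0.29 to 0.61, limma adjusted p = 0.944). Without Model_1 the difference was -0.029, so the direction of Postn rested on that library.

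Cthrc1 (chromosome 7, 77966722 to 77977004, plus strand), known as a product of collagen-producing fibroblasts in scarred lung, was at 0.751, 0.409 and 0.553 FPKM in control and at 0.429, 0.141 and 0.949 FPKM in PF model libraries. The PF model libraries held both its lowest and its highest value. Only 8 to 53 reads per library were estimated for it. The log2(FPKM + 1) difference was -0.090 (95% interval -0.57 to 0.39, limma adjusted p = 0.972), and without Model_2 it was 0.093. With a pseudocount of 0.1, which compresses low values less, the interval ran from -1.67 to 0.95, which does not exclude a change of Cthrc1 by 1 log2 unit downward.

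The CCN genes Ctgf and Cyr61, whose promoters are printed above, encode modular proteins that bind integrins and growth factors. Cyr61 (chromosome 2, 251529354 to 251532312, minus strand) stood at 99.6, 119 and 138 FPKM in control and at 112, 117 and 69.2 FPKM in PF model libraries. Model_3 lay below all other libraries, while Model_1 and Model_2 lay within the range of the controls. The means were 119 ± 19.1 and 99.5 ± 26.4 FPKM (SD, n = 3), and the log2 difference of -0.28 was the lowest of the members (95% interval -0.83 to 0.27, limma adjusted p = 0.933). Without Model_3 it was -0.039.

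Ctgf (chromosome 1, 21851660 to 21854773, minus strand) stood at 14.6, 22.9 and 27.3 FPKM in control and at 21.2, 21.6 and 25.9 FPKM in PF model libraries. The controls held both the lowest and the highest value and enclosed the PF model libraries. The means were 21.6 ± 6.42 and 22.9 ± 2.61 FPKM (SD, n = 3). The log2 difference was 0.12 (95% interval -0.42 to 0.65, limma adjusted p = 0.967) and turned to -0.13 without Control_1.

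Spp1 (chromosome 14, 6673686 to 6679901, minus strand) encodes osteopontin, a secreted phosphoglycoprotein that macrophages make in injured lung. It was listed at 0.361, 0 and 0.116 FPKM in Control_1 to Control_3 and at 0.345, 0.184 and 0.302 FPKM in Model_1 to Model_3. The highest value was a control, and at most 25 reads were estimated in any library. The log2(FPKM + 1) difference was 0.15 (95% interval -0.14 to 0.44, limma adjusted p = 0.933). At a pseudocount of 0.1 it was 0.78 with a 95% interval from -0.56 to 2.12, which does not exclude a change of 1 log2 unit upward. Without Control_1, Spp1 was the only member that met the call rule (log2 difference 0.27, with an unadjusted limma p of 0.0238). Macrophage markers, from 5 genes found, summed to 25.0 to 46.6 FPKM in control and to 30.2 to 59.8 FPKM in PF model libraries. Both low ends followed Cd68, which was at 1.30 FPKM in Control_3 and 1.21 FPKM in Model_2 and between 20.7 and 22.8 FPKM in the other 4. The part of macrophages in the Spp1 values was not tested.

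**Figure D2:**
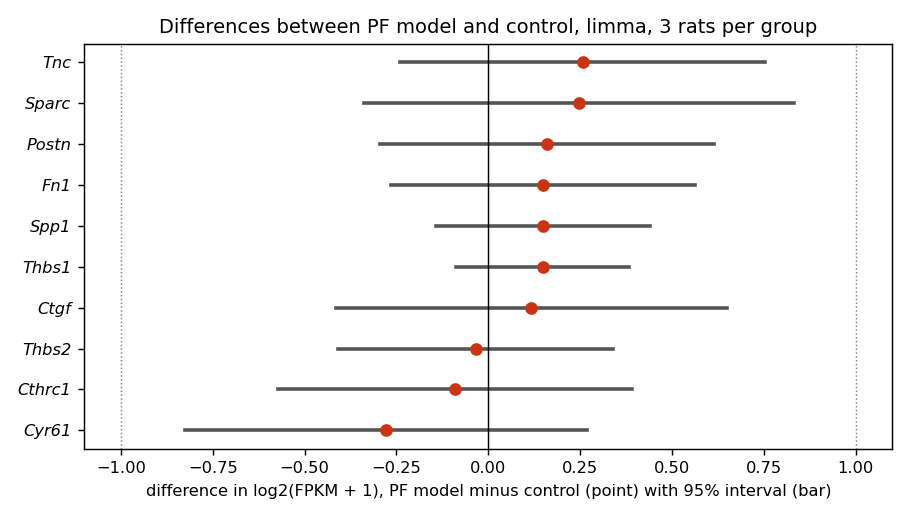
Difference in log2(FPKM + 1) between PF model and control samples for each member (point) with its 95% interval from limma (bar), ordered by size from Tnc (0.26) to Cyr61 (-0.28). The dotted lines mark a difference of 1 log2 unit in either direction, and every bar crosses 0 and lies between -0.83 and 0.83.

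On the log2(FPKM + 1) scale no interval of the 7 members with a mean of at least 10 FPKM reached 1 log2 unit in either direction. The bounds of all 10 lay between -0.83 and 0.83, but for the 3 members below 1 FPKM the pseudocount shrinks the difference and the interval with it.

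The members did not rise or fall as a block within a library. Model_3 held the highest value of 4 members (Sparc, Fn1, Tnc and Cthrc1) and the lowest of Cyr61. Control_3 held the lowest value of 4 members (Sparc, Fn1, Postn and Tnc) and the highest of 3 (Cyr61, Ctgf and Thbs2). Without Model_3 the log2 differences of Sparc, Fn1 and Tnc were 0.13, 0.020 and 0.12, and without Control_3 they were 0.036, -0.0021 and 0.093. Model_3 also stood apart in markers of cardiac muscle, which line the pulmonary veins of rodents. The 5 cardiac genes summed to 6.88 to 11.4 FPKM in control and to 6.41 to 27.7 FPKM in PF model libraries. Myh6, the alpha myosin heavy chain of heart muscle, was listed at 5.11 FPKM in Model_3, at 0.034 FPKM in Model_2 and at 0 in the other 4. Some smooth muscle genes, chosen after their values were seen, were highest in Model_3 as well. Cnn1 stood at 13.04 FPKM there and at 4.97 to 8.49 FPKM in the other 5, Actg2 at 15.1 against 6.37 to 11.0 FPKM, and Acta2 at 88.5 against 47.3 to 66.3 FPKM. Des was at 21.6 FPKM in Model_3 and at 11.2 to 18.6 FPKM elsewhere, and Myh11 at 41.5 FPKM against 25.7 to 33.6 FPKM. The 6 smooth muscle and pericyte markers, without Acta2, summed to 75.5 to 94.8 FPKM in control and to 71.7 to 114 FPKM in PF model libraries. Pdgfrb and Cspg4 of these markers are not among the genes just listed. The highest log2 difference among the 6 was 0.12 with Model_3 and 0.20 without it, so not all 6 were highest in that library. The part of heart or smooth muscle tissue in the member values of Model_3 was not tested.

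**Figure D3:**
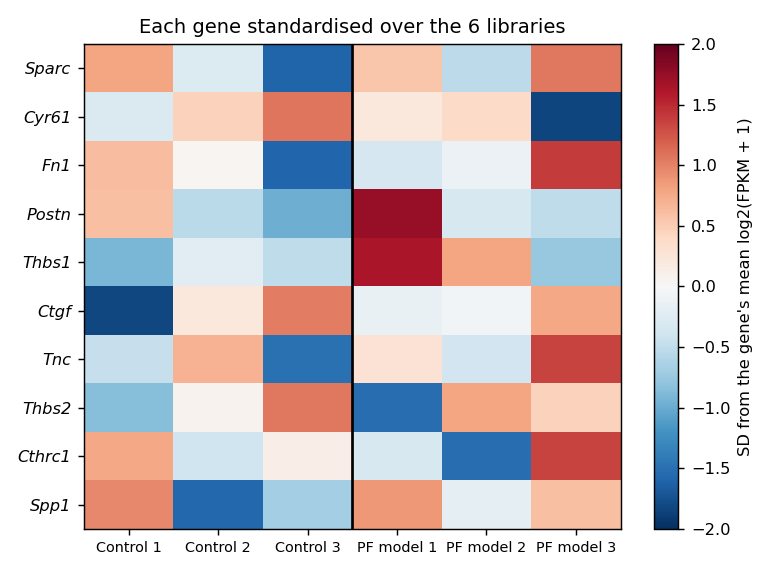
Each member's log2(FPKM + 1), standardised to SD units over the 6 libraries (red above and blue below the gene's own mean), with the 3 control libraries left of the black line and the 3 PF model libraries right of it. Control_3 is lowest for 4 members and highest for 3, and Model_3 is highest for 4 and lowest for Cyr61.

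The transcript rows showed more variation than the gene sums. Of the 42 rows, 13 matched an Ensembl transcript, 25 shared a splice junction with one, and 2 lay antisense and 2 within a short distance of a member. Of the 40 rows tested, none was called, against 2.98% of the 64867 rows of the table (1.22% higher and 1.76% lower), and none had an adjusted p below 0.05, against 0.0277%. Among the 40, 3 had groups that did not overlap, against 10.4% of all rows. The 3 were a Ctgf row (MSTRG.337.3), a Cyr61 row (MSTRG.21016.5) and an Fn1 row (MSTRG.37244.6).

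MSTRG.337.3 of Ctgf stood at 2.73, 2.83 and 2.82 FPKM in control and at 3.22, 4.0 and 6.03 FPKM in PF model libraries, with a log2 difference of 0.48 (95% interval -0.024 to 0.99, limma adjusted p = 0.945). MSTRG.21016.5 of Cyr61 stood at 13.8, 14.0 and 24.3 FPKM in control and at 13.1, 13.5 and 8.77 FPKM in PF model libraries, a difference of -0.50 (95% interval -1.17 to 0.18, limma adjusted p = 0.945). MSTRG.37244.6 of Fn1 stood at 1.97, 2.27 and 1.59 FPKM in control and at 3.11, 2.46 and 3.05 FPKM in PF model libraries. It was the only member row with an unadjusted p of at most 0.05, against 4.53% of all rows, with a difference of 0.40 (95% interval 0.020 to 0.77, limma adjusted p = 0.945). This row held 3.05% of the mean Fn1 level. The main Fn1 row, MSTRG.37244.9, held 85.1% to 88.1% in every library. The leading rows of Ctgf (ENSRNOT00000089196, 37.0% to 48.3%), Cyr61 (MSTRG.21016.2, 43.7% to 51.3%) and Thbs1 (MSTRG.23646.4, 46.8% to 55.1%) were the same in all 6 libraries. The leading Thbs1 row is partial, with 6 exons and 1469 bases (109862592 to 109866801). It lies within the span of MSTRG.23646.1, which has 20 exons and 6258 bases.

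The rows of Postn, Sparc and Tnc shifted between libraries more than the gene sums did, and Postn and Tnc exchanged their leading row. For Postn, MSTRG.19644.2 held 90.3%, 73.0% and 20.8% of the gene in Control_1 to Control_3 and 86.3%, 87.5% and 94.4% in Model_1 to Model_3. In Control_3 the Ensembl row ENSRNOT00000017453 was at 34.7 FPKM and MSTRG.19644.2 at 12.3 FPKM. These rows are 3177 and 3178 bases long, both with 22 exons and a start at 143656845, and end at 143688087 and 143688085. How reads were divided between rows so alike was not tested. The coefficient of variation over the 6 libraries was 44.4% for MSTRG.19644.2 and 19.9% for the Postn sum. An exact permutation test over the 20 regroupings of the 6 libraries gave p = 0.3 for the share, where 0.1 is the smallest that 3 against 3 allow.

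For Sparc, ENSRNOT00000017486 held 94.8%, 54.6% and 99.4% in control and 99.6%, 99.3% and 99.9% in PF model libraries (exact permutation p = 0.2). Control_2 alone carried MSTRG.5315.1, an 11-exon row of 2332 bases, at 156 FPKM, and no other library had it above 0.07 FPKM. Control_1 alone carried the antisense row MSTRG.5316.1, 232 bases long, at 21.3 FPKM. For Tnc, ENSRNOT00000084563 held 9.51%, 62.2% and 43.4% in control and 3.22%, 3.65% and 47.1% in PF model libraries (exact permutation p = 0.3). Its coefficient of variation was 102% over the 6 libraries against 22.4% for the Tnc sum. Thbs1 had a row, ENSRNOT00000083351, at 6.96 FPKM in Model_3 and at 0 in the other 5. Over the 7 genes with more than 1 row, adjusted p of the shares lay between 0.42 and 0.80. When only rows with an Ensembl identifier were summed, the differences of Postn (-1.20), Tnc (-0.83) and Cyr61 (0.0063) had the opposite sign to the full sums. Such rows held only a part of the mean level, at 0.787% for Cyr61, 29.9% for Tnc, and 16.6% and 5.98% for Postn.

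**Figure D4:**
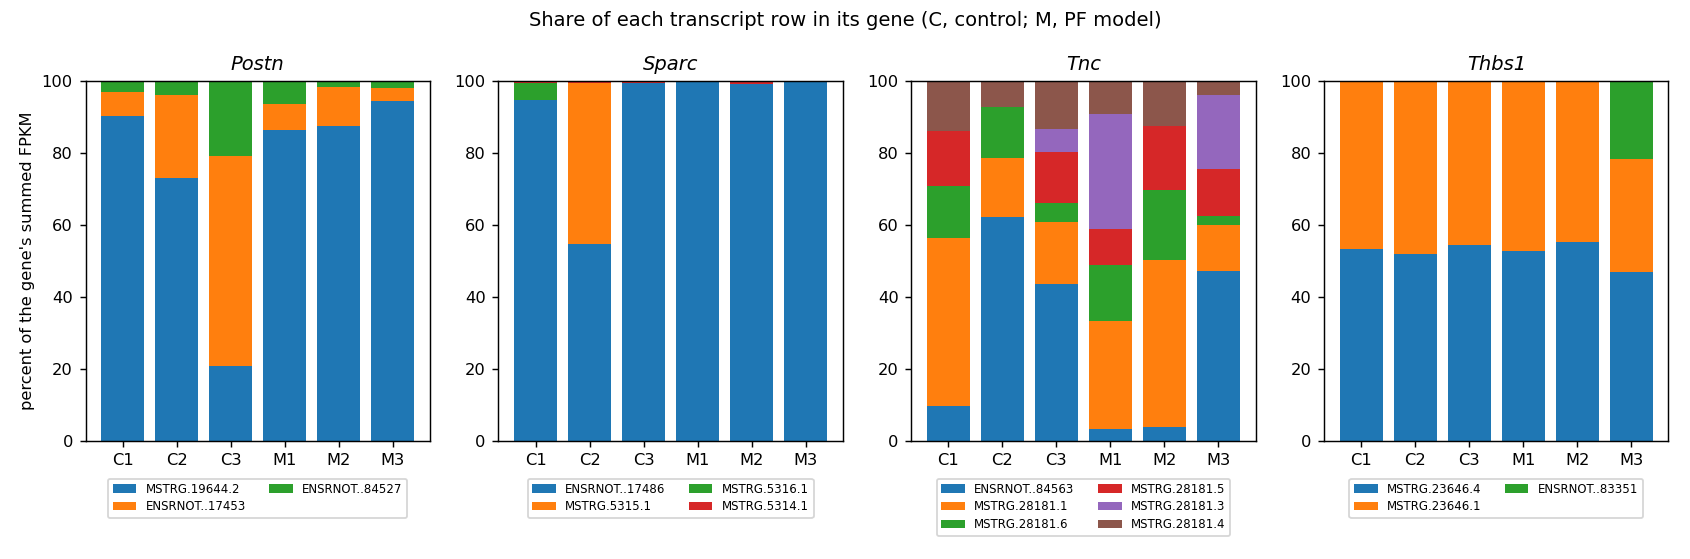
Share of each transcript row, in percent of the gene's summed FPKM, for Postn, Sparc, Tnc and Thbs1 in the 3 control (C) and 3 PF model (M) libraries; ENSRNOT names are shortened in the legend. The leading Postn row falls to 20.8% in Control_3, a second Sparc row appears in Control_2 only, and the leading Tnc row ranges from 3.22% to 62.2%.

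Back-splice reads, a further readout of the same genes, were nearly absent from the members. Of 5216 circRNAs, 2 were assigned to members, namely circRNA852 of Thbs1 with 2 reads in Control_1 and circRNA3341 of Thbs2 with 2 reads in Model_1. The other 8 members hosted none among 2037 to 2964 back-splice reads per library, and the groups were not compared.

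Genes that act with the members were read as 4 lists, with no gene called in any of them. Of 22 relatives in the same protein families, 17 were tested and none had an unadjusted p of at most 0.05, with a median log2 difference of -0.0047. Fstl1, a secreted relative of Sparc, had the highest mean of these (39.7 FPKM). Among the relatives with a mean of at least 1 FPKM, Spock2, a proteoglycan of the same family, had the largest ratio of group means, with 14.7, 34.1 and 11.96 FPKM in control and 56.2, 21.2 and 23.9 FPKM in PF model libraries (log2 difference 0.71, 95% interval -0.46 to 1.89, limma adjusted p = 0.933).

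Of 19 cell surface receptors, 18 were tested, 1 was higher and 1 lower at an unadjusted p of at most 0.05, and the median difference was 0.013. Itgav, the integrin alpha v subunit that binds fibronectin, osteopontin and periostin, stood at 32.5, 30.5 and 33.4 FPKM in control and at 25.6, 26.4 and 23.7 FPKM in PF model libraries. Its groups did not overlap (log2 difference -0.34, limma adjusted p = 0.933). Cd44, a receptor of hyaluronan and osteopontin, stood at 26.1, 25.8 and 25.6 FPKM in control and at 32.5, 28.8 and 28.3 FPKM in PF model libraries, again without overlap (log2 difference 0.20, limma adjusted p = 0.933).

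Of 18 regulators of the members' transcription, 17 were tested and 1 had an unadjusted p of at most 0.05, with a median difference of 0.022. This was Tead4, one of the TEAD factors, at 22.3, 21.3 and 21.7 FPKM in control and 25.1, 27.4 and 26.8 FPKM in PF model libraries (log2 difference 0.27, limma adjusted p = 0.933). Smad2 and Tgfbr2, chosen after their values were seen, were also without overlap, with log2 differences of -0.38 and 0.17 and limma adjusted p of 0.933 for both. Of the members that carry GGAATG, Thbs1, Sparc and Ctgf had differences above 0 and Cyr61 one below 0, and none passed the test.

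Of 16 collagen and myofibroblast genes, 15 were tested and 2 were higher at an unadjusted p of at most 0.05, with a median difference of 0.11. Serpinh1, the collagen chaperone HSP47, stood at 88.5, 72.6 and 66.4 FPKM in control and at 96.2, 92.7 and 93.7 FPKM in PF model libraries (log2 difference 0.32, limma adjusted p = 0.933). Col3a1, the chain of type III collagen, stood at 174, 178 and 154 FPKM in control and at 189, 204 and 233 FPKM in PF model libraries (log2 difference 0.30, limma adjusted p = 0.933). Both were without overlap. Lox, a collagen cross-linking enzyme chosen after its values were seen, was also without overlap but lower, at 17.4, 16.2 and 15.4 FPKM in control and at 14.6, 12.8 and 15.0 FPKM in PF model libraries (log2 difference -0.20, limma adjusted p = 0.933). The counts of 1 or 2 genes per list stand beside 4.91% of all genes at this p. Groups did not overlap for 0 of 17 relatives, 2 of 18 receptors, 3 of 17 regulators and 3 of 15 collagen and myofibroblast genes. For all genes this share was 10.7%, and lists this small cannot be set apart from it. All genes named for the lists missed the call rule with ratios below 1 log2 unit. Fstl1, Spock2, Smad2, Tgfbr2 and Lox also had an unadjusted limma p above 0.05. The difference between members and lists was not tested.

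**Figure D5:**
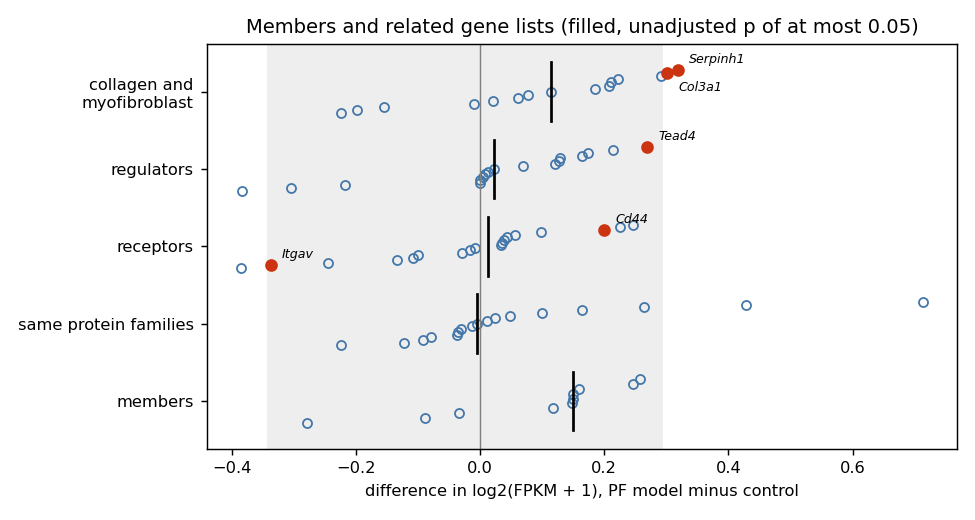
Difference in log2(FPKM + 1) between PF model and control samples for the 10 members and the tested genes of 4 related lists, 1 circle per gene, with a black bar at each list's median and filled circles for an unadjusted limma p of at most 0.05. The grey band holds the middle 90% of all 19645 genes (-0.34 to 0.29), and the 5 filled genes are Itgav, Cd44, Tead4, Col3a1 and Serpinh1.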

How the data were processed

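RNA of 3 control and 3 PF model rats was used, grouped by sample titles. Per the study's methods, the authors used Cutadapt for trimming and Bowtie2 with Tophat2 for mapping, and deposited FPKM from StringTie and Ballgown per transcript; the submitters' notes also name HISAT2. The deposited coverage, a signal, gave estimated reads (coverage times length over 150 bases). The deposited counts of circRNA back-splice reads were described only, and SRPBM were not used. The genome build was not given in the sources used here. FPKM were summed per gene name, which also adds rows antisense or close to a gene. Genes above 0 FPKM in 3 or more libraries were tested with limma 3.58.1 (trend, R 4.3.3, two-sided) on log2(FPKM + 1) with Benjamini-Hochberg adjustment over all genes, after the fit was tested on simulated data. The pseudocount understates changes of low genes. Shares were compared by two-sided exact permutation tests.

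Members and gene lists were chosen with earlier results of these data known. The text names all members, their rows of at least 5% or with a call as examples, list genes with p of at most 0.05 (otherwise the most abundant gene and the largest ratio at a mean of at least 1 FPKM), and 5 genes of like pattern; the rows MSTRG.37244.6, MSTRG.5316.1 and ENSRNOT00000083351 and the genes Myh6, Lox, Smad2, Tgfbr2, Cd68 and those of smooth muscle were chosen after their values were seen. Alternatives were other pseudocounts, filters, scalings, tests, gene sums, a replicate block and leaving out each library; sums over sense rows were added after seeing the data. Gene symbols are those of the file. Promoters were matched by symbol or RefSeq synonym (Ccn2 for Ctgf, Ccn1 for Cyr61).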

Additional observations from a re-analysis of the deposited data

How the results depend on the processing

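Whole-lung values of 3 libraries per group limit the precision, and Thbs2, Cthrc1 and Spp1 had at most 344 estimated reads per library. Calls in the members stayed at 0 in all settings but 1 (without Control_1, 1 call, Spp1), and members with an unadjusted p of at most 0.05 numbered 0 to 1 when single libraries were left out. Of 156 member values over the alternatives, 2 had such a p and 14 changed sign. Sums over sense rows, added after seeing the data, gave no member call. The members' median difference lay between 0.0063 and 0.23. Among all genes, 38 were called higher and 46 lower at a mean FPKM of at least 1, 52 and 101 by an F test with library size as covariate, and 250 and 269 with Ensembl transcripts only. TPM scaling gave 196 higher and 141 lower, or 58.2% higher against 43.6% in the reported fit and 34.0% by the F test. Called transcripts, 794 higher and 1140 lower, became 425 and 641 at a mean of at least 1, and 414 and 408 by the F test. The cause was not tested.

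The replicate number as a block left members called at 0 and gave 143 genes higher and 169 lower. Deviations of same-numbered libraries correlated at 0.067, 0.028 and -0.087 over 14320 genes, beside -0.14 to 0.10 for libraries of different numbers. These values show no pairing by number, but so few libraries cannot exclude one.

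Differences changed sign, on the log2 scale, with TPM for Thbs2 (0.0040), MSTRG.337.2 (0.0045), MSTRG.21016.7 (0.019), MSTRG.23646.1 (0.032), ENSRNOT00000014552 (0.0040). With the F test they did so for Fn1 (-0.042), Thbs2 (0.12), Postn (-0.021), Sparc (-0.040), ENSRNOT00000089196 (-0.081), MSTRG.21016.2 (0.32), MSTRG.21016.4 (0.25), MSTRG.21016.5 (0.14), MSTRG.21016.7 (0.45), MSTRG.37244.9 (-0.26), ENSRNOT00000017453 (0.25), ENSRNOT00000084527 (0.29), MSTRG.23646.1 (0.39), ENSRNOT00000014552 (0.030), MSTRG.28181.4 (0.15). With Ensembl transcripts only they did so for Tnc (-0.83), Postn (-1.20), Cyr61 (0.0063). Leaving out 1 library gave these ranges across 0: Ctgf (-0.13 to 0.30), Fn1 (-0.0021 to 0.26), Thbs2 (-0.12 to 0.10), Postn (-0.029 to 0.28), Cthrc1 (-0.29 to 0.093), ENSRNOT00000089196 (-0.25 to 0.19), MSTRG.337.1 (-0.42 to 0.29), MSTRG.21016.3 (-0.17 to 0.15), MSTRG.5315.1 (-3.63 to 0.014), MSTRG.337.2 (-0.23 to 0.12), MSTRG.21016.7 (-0.18 to 0.17), MSTRG.37244.9 (-0.016 to 0.23), ENSRNOT00000014552 (-0.12 to 0.10), MSTRG.28181.6 (-0.23 to 0.48), MSTRG.338.1 (-0.045 to 0.18), ENSRNOT00000006142 (-0.29 to 0.093), MSTRG.21016.4 (-0.34 to 0.015), MSTRG.23646.1 (-0.22 to 0.21), MSTRG.28181.4 (-0.23 to 0.046). None of these differences passed the test in the reported fit.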

Other observations

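The cell type marker lists gave no gene with an unadjusted limma p of at most 0.05 between control and PF model lungs in the reported fit. All 6 markers of alveolar type 2 cells had differences above 0 (median 0.26 on the log2 scale), and 5 of 6 without Control_3 or without Model_1. Those of type 1 cells were above 0 in 6 of 6 (median 0.087), but in 3 of 6 without Control_3 (median 0.021) or without Model_1. Of the 4 airway secretory and ciliated markers none was above 0 (median -0.15), but 2 were after scaling to TPM and without Control_3, Model_1 or Model_2, and the median was 0.053 without Control_3. None of 5 lymphocyte markers was above 0 (median -0.079), but 3 were without Control_2 (median 0.020). The cardiac median of 0.23 rested on Model_3, without which it was -0.19 with 0 of 4 genes above 0. Medians were 0.14 for macrophage (0.12 to 0.46 over the alternatives) and -0.15 for neutrophil markers (-0.31 to -0.038). They lay on either side of 0 over the alternatives for fibroblast (0.016, from -0.081 to 0.10), smooth muscle and pericyte (0.046, from -0.20 to 0.17) and endothelial markers (0.022, from -0.027 to 0.11). The same held for megakaryocyte and platelet (0.0088, from -0.098 to 0.095), mesothelial (-0.0067, from -0.13 to 0.17) and plasma and red cell markers (0.017, from -0.039 to 0.20). The cartilage median was 0.033 (0.011 to 0.27). Platelets store thrombospondin 1, and their markers summed to 10.9 to 20.1 FPKM in control and 12.9 to 17.5 FPKM in PF model libraries.

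The 5 genes whose levels over the 6 libraries were most like the members' mean standardised level were Mrps11 (Pearson r 0.995), Atp6v0c (0.994), Camk2a (0.993), Mcemp1 (0.991) and Myo5b (0.990), among 14313 genes compared. With 6 points and this many genes, such values are a description only. Atp6v0c, a subunit of the vacuolar proton pump, stood at 71.5, 71.0 and 65.1 FPKM in control and at 81.5, 69.9 and 85.5 FPKM in PF model libraries, so its groups overlapped as those of the members did.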
